A study of Mus musculus with 2 samples.

Results

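The 20 array probes described here detect the mature arms of 9 mouse microRNAs (miRNAs): mmu-miR-17, mmu-miR-18a, mmu-miR-19a, mmu-miR-19b, mmu-miR-20a and mmu-miR-92a of the miR-17-92 cluster, and mmu-miR-106b, mmu-miR-93 and mmu-miR-25 of the miR-106b-25 cluster. The species prefix is left out below. They were chosen by name from the 1900 mouse miRNA probes of the array, taking every arm and every numbered copy. Of the 20 probes, 12 belong to the miR-17-92 cluster and 6 to the miR-106b-25 cluster. The other 2, miR-19b-2-5p and miR-92a-2-5p, come from second gene copies on chromosome X and were counted in neither cluster. The RNA was total RNA of mononuclear cells isolated from the colon lamina propria, the immune-cell-rich layer under the gut epithelium, of male Balb/c mice. Animals kept free of specific pathogens but colonised by gut microbes (SPF) were represented by 1 array, and animals raised without microbes (germ-free) by 1 array. The labels give no age and no number of animals behind either sample. With 1 array per group no difference between the groups has a replicate error, and no test was run.

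MicroRNAs are short RNAs that lower the translation and stability of messenger RNAs which pair with their seed, bases 2 to 8 counted from the 5′ end. The miR-17-92 cluster is transcribed as a single primary RNA under the control of Myc and E2F factors, is abundant in dividing lymphocytes and their precursors, and promotes proliferation and survival. The miR-106b-25 cluster is its paralog inside Mcm7, a gene for a subunit of the replicative DNA helicase. A precursor hairpin yields a 5p and a 3p arm, and usually the arm that is loaded into Argonaute accumulates.

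The 9 main arms carry 4 distinct seeds, and the values below are grouped by them. The mature sequences are those of RefSeq on GRCm38.p6, which held 19 of the 20 probe names (miR-19a-5p was not matched). They are shown because near-identical family members are told apart by few bases. The seed is in capitals. The first family shares the seed AAAGUGC and represses cell cycle brakes such as Cdkn1a.
mmu-miR-17-5p: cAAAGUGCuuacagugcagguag
mmu-miR-20a-5p: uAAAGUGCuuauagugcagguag
mmu-miR-93-5p: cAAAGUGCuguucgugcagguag
mmu-miR-106b-5p: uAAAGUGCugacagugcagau

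The seed of miR-18a-5p is related to that of the first family and differs from it at 1 base (A4G, counted from the 5′ end of miR-17-5p). The miR-25 and miR-92a pair represses the pro-apoptotic gene Bcl2l11.
mmu-miR-18a-5p: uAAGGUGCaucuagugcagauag
mmu-miR-19a-3p: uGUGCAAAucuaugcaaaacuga
mmu-miR-19b-3p: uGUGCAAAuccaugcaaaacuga
mmu-miR-25-3p: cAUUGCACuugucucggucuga
mmu-miR-92a-3p: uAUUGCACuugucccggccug

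Against miR-17-5p, miR-20a-5p differs at 2 of 23 positions (C1U and C12U), miR-93-5p at 4 of 23, and miR-106b-5p at 3 of the 21 positions that can be compared. miR-19a-3p differs from miR-19b-3p at 1 position, C11U in the numbering of miR-19b-3p. miR-25-3p differs from miR-92a-3p at 3 of 21 positions (U1C, C14U and C18U). The GC content of the main arms ran between 34.8% in miR-19a-3p and 57.1% in miR-92a-3p.

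In GENCODE M21 (GRCm38), the 6 precursors of miR-17-92 lie within 836 bases at chr14:115043671-115044506 on the plus strand, all inside exon 2 of the long non-coding RNA Mir17hg. The 3 precursors of miR-106b-25 lie within 498 bases at chr5:138165321-138165818 on the minus strand, in the intron between exons 13 and 14 of the 15-exon Mcm7 transcript. The annotated exon 1 of a shorter Mcm7 transcript also overlaps Mir93 and Mir25. The third paralog cluster, miR-106a-363, spans 875 bases at chrX:52741693-52742567 on the minus strand and holds the second copies of miR-19b and miR-92a. Their 3p arms, miR-19b-3p and miR-92a-3p, have the same sequence from both chromosomes, so their probes read chromosomes 14 and X together. Their 5p arms differ between the copies, which the miR-92a pair shows.
mmu-miR-92a-1-5p: aGGUUGGGauuugucgcaaugcu
mmu-miR-92a-2-5p: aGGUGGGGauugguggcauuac

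Each probe had 1 spot on each array, and the deposited value is its median intensity. The mean of the blank spots, 158.3 on the SPF array and 128.5 on the germ-free array, was subtracted, and the SPF values were then multiplied by 0.849 so that the median miRNA was the same on both arrays. The result is called the scaled net intensity. Net intensity compares 1 probe between arrays, and different probes need not give the same signal per molecule. The detection floor was 2 SD of the blank spots above their mean. Of the 1900 miRNA probes, 1471 were above it on both arrays, and their median log2 SPF over germ-free was -0.06. A technical error was computed for each log2 value from the spread of repeated bright control spots (SD 0.09 on the log2 scale per spot) and of the blank spots. It covers spread within an array only. Removing the median of each block of the array, described below, moved some values by more than this error.

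All 17 member probes that were above the floor on both arrays were lower on the SPF array, with a median log2 of -0.35 (range -0.98 to -0.02), against 57.6% of all shared miRNA probes with a value below 0. A stricter floor, from spots without a probe, left 14 members, without the dim arm at -0.98. Of these 13 were lower, with a median of -0.23 over the 14, where 50.9% of all miRNA probes above that floor were lower. Without scaling between the arrays, 11 of the 17 were lower and 6 higher, where 28.1% of all shared miRNA probes were lower. No scaling shifted the median of all miRNA probes to 0.18 and that of the members to -0.11, so the members' median was at -0.29 relative to the median miRNA in either case, as a constant factor cannot change that value, and 16 of the 17 members lay below that miRNA. The exception was miR-18a-5p, and with the median of each block of the array removed all 17 lay below the median miRNA. None of the 17 reached a 2-fold difference, where 1.43% of all shared probes were at least 2-fold lower and 1.56% at least 2-fold higher. Below 0 by more than 2 technical errors were 7 of the 17 members, against 15.2% of all shared probes. These 7 were miR-92a-3p, miR-17-3p, miR-19a-3p, miR-19b-3p, miR-25-5p, miR-18a-3p and miR-93-5p. That count depends on the scaling. Without scaling miR-92a-3p (log2 -0.50) and miR-17-3p (-0.40) were still beyond 2 of their technical errors. The values of miR-19a-3p (-0.21), miR-19b-3p (-0.16), miR-25-5p (-0.15), miR-18a-3p (-0.11) and miR-93-5p (-0.06) were then within 2 technical errors. With scaling, 0 members were above 0 by more than 2 technical errors, against 8.29% of all shared probes.

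**Figure D1:**
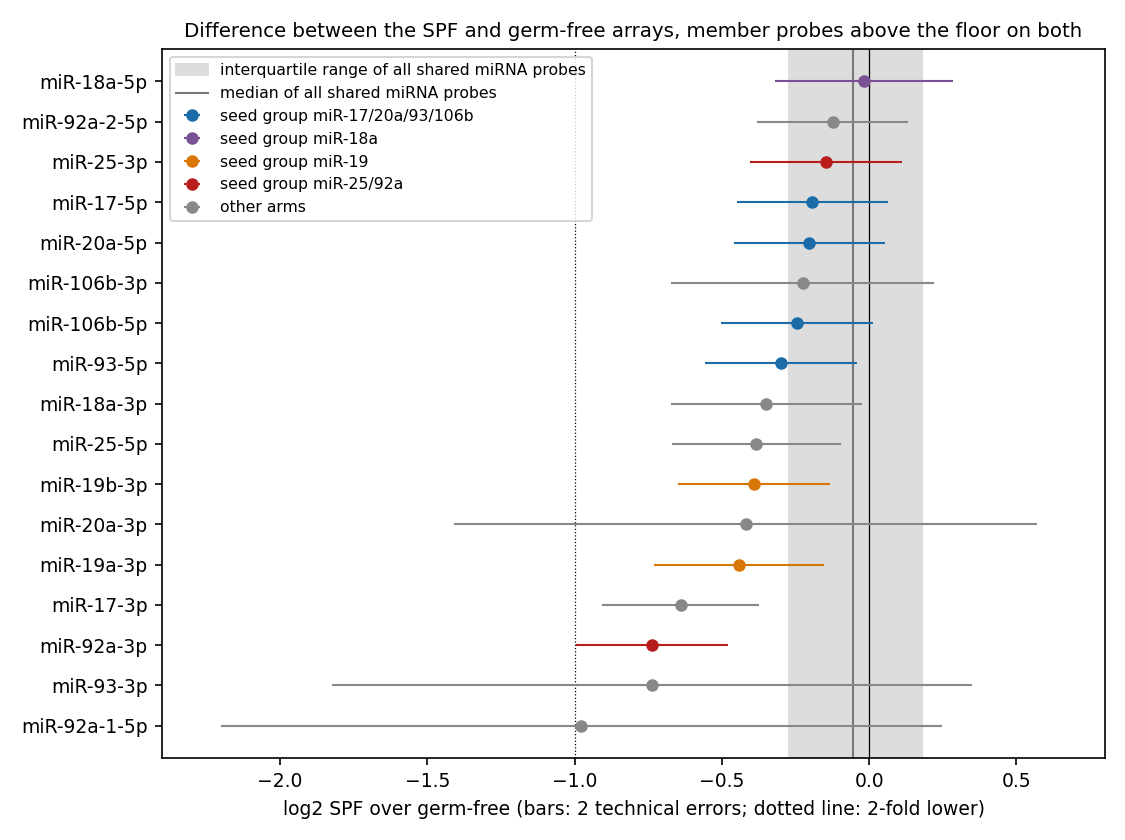
Log2 SPF over germ-free (x axis) of the 17 member probes above the floor on both arrays, ordered from the highest to the lowest and coloured by seed group, with bars of 2 technical errors on each side, the median of all shared miRNA probes (-0.06) as a grey line and their interquartile range as a grey band. All points lie left of 0, from -0.02 for miR-18a-5p to -0.98 for miR-92a-1-5p, and the dim miR-92a-1-5p, miR-93-3p and miR-20a-3p have the widest bars; without scaling between arrays 6 of the points lie right of 0.

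Marker miRNAs of the labelled cells and of other cell types were read on the same arrays. Of 3 pan-leukocyte miRNAs all were above the floor. miR-223-3p, typical of myeloid cells, was higher on the SPF array (log2 0.74), while miR-142a-5p (-0.66) and miR-142a-3p (-1.01) were lower. The 3 had a summed scaled net intensity of 6255 on the SPF array and 9502 on the germ-free array. The lymphocyte miRNA miR-150-5p reached 7552 on the SPF array and 18699 on the germ-free array. The 5 lymphocyte miRNAs together summed to 9237 on the SPF array and 21152 on the germ-free array, with 4 of 5 lower on the SPF array. All 8 intestinal epithelial miRNAs were higher on the SPF array, and they summed to 14529 on the SPF array and 5458 on the germ-free array. The muscle and stromal list summed to 1274 on the SPF array and 1294 on the germ-free array, its member miR-1a-3p being under the floor on both. Of its other 6 members, 5 were higher on the SPF array and 1 lower, with a median log2 of 0.15 (range -0.34 to 0.45). The erythroid list summed to 4694 on the SPF array and 5669 on the germ-free array, with 3 of 3 lower on the SPF array. The part of these lists in the values of the proliferation clusters was not tested. In bulk RNA, fewer cells of a type and less RNA per cell cannot be told apart.

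The family with the seed AAAGUGC held the brightest main arms of both clusters and had a median log2 of -0.22. miR-17-5p, a repressor of the cell cycle regulators Cdkn1a and E2f1, had a spot intensity of 2259 on the SPF array and 2167 on the germ-free array. After background subtraction and scaling these became 1784 on the SPF array and 2039 on the germ-free array, a log2 of -0.19 (technical error 0.13). The deposited intensity was thus higher on the SPF array, and the order of the values turned with the scaling.

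miR-20a-5p, which is encoded downstream of miR-17 on the same transcript and shares its seed, had a like value. Its intensities were 1735 on the SPF array and 1670 on the germ-free array, with scaled net intensities of 1339 on the SPF array and 1541 on the germ-free array and a log2 of -0.20 (technical error 0.13). Without scaling its log2 was 0.03 and that of miR-17-5p 0.04.

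The paralogs of the same seed lie in Mcm7. miR-93-5p had intensities of 1783 on the SPF array and 1826 on the germ-free array, and a log2 of -0.30 (technical error 0.13). miR-106b-5p, which also represses Cdkn1a, had intensities of 983.5 on the SPF array and 958.8 on the germ-free array, and a log2 of -0.24 (technical error 0.13). Among the 4 members of this seed family the log2 values of any pair differed by at most 0.11, less than the technical error of such a difference of 0.18. The gaps depended on the processing. After the median of each block of the array was removed, the log2 was -0.17 for miR-17-5p, -0.35 for miR-20a-5p, -0.16 for miR-93-5p and -0.56 for miR-106b-5p, and the gap between miR-106b-5p and miR-93-5p was -0.40.

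miR-18a-5p, the miR-17 relative with a changed seed, was the member nearest to 0. It was dim, with intensities of 295.2 on the SPF array and 246.1 on the germ-free array. The scaled net intensities were 116.2 on the SPF array and 117.6 on the germ-free array, a log2 of -0.02 (technical error 0.15). The value changed with the processing, to 0.22 without scaling and -0.34 after the median of each block of the array was removed.

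The miR-19 pair, the main oncogenic part of the cluster in B-cell lymphoma models, was lower by more than 2 technical errors in both members. miR-19b-3p had scaled net intensities of 674.9 on the SPF array and 885.6 on the germ-free array, a log2 of -0.39 (technical error 0.13). miR-19a-3p had 124.1 on the SPF array and 168.6 on the germ-free array, a log2 of -0.44 (technical error 0.14). The 2 values differ by 0.05, less than the technical error of their difference of 0.19, and with block medians removed miR-19a-3p was 0.21 above miR-19b-3p. Both values were negative without scaling too (median -0.18). At -0.16 for miR-19b-3p and -0.21 for miR-19a-3p, they were then within 2 technical errors of 0. Subtracting each spot's local background gave a median of 1.15.

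miR-92a-3p, the last arm of the miR-17-92 transcript, had the most negative value among the main arms. Its spot intensities were 1011 on the SPF array and 1335 on the germ-free array, so it was lower on the SPF array before any scaling. The scaled net intensities were 723.9 on the SPF array and 1206 on the germ-free array, a log2 of -0.74 (technical error 0.13), or 1.67-fold lower. Its seed partner miR-25-3p, from the Mcm7 cluster, had scaled net intensities of 951.2 on the SPF array and 1054 on the germ-free array and a log2 of -0.15 (technical error 0.13). The log2 of miR-25-3p was 0.59 above that of miR-92a-3p, with a technical error of 0.18 for the difference. With block medians removed this gap was 0.56. The probes of miR-92a-3p and miR-19b-3p also read the copies on chromosome X. Against the arms of the miR-17-92 cluster, the log2 of miR-92a-3p differed by -0.54 from miR-17-5p and by -0.53 from miR-20a-5p (technical error 0.18 each). It differed by -0.34 from miR-19b-3p (technical error 0.18), by -0.29 from miR-19a-3p (technical error 0.19) and by -0.72 from miR-18a-5p (technical error 0.20). All of these but the gaps to the miR-19 arms exceeded 2 technical errors of the difference. With block medians removed the gap to miR-17-5p, at -0.43, still did so, but those to miR-20a-5p (-0.25) and miR-18a-5p (-0.26) did not. The gaps to miR-19b-3p and miR-19a-3p were then -0.06 and -0.27. In that setting miR-92a-3p, at -0.60, was barely below miR-106b-5p (-0.56) and miR-19b-3p (-0.54). With local background subtraction, miR-92a-3p was at 0.19.

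**Figure D2:**
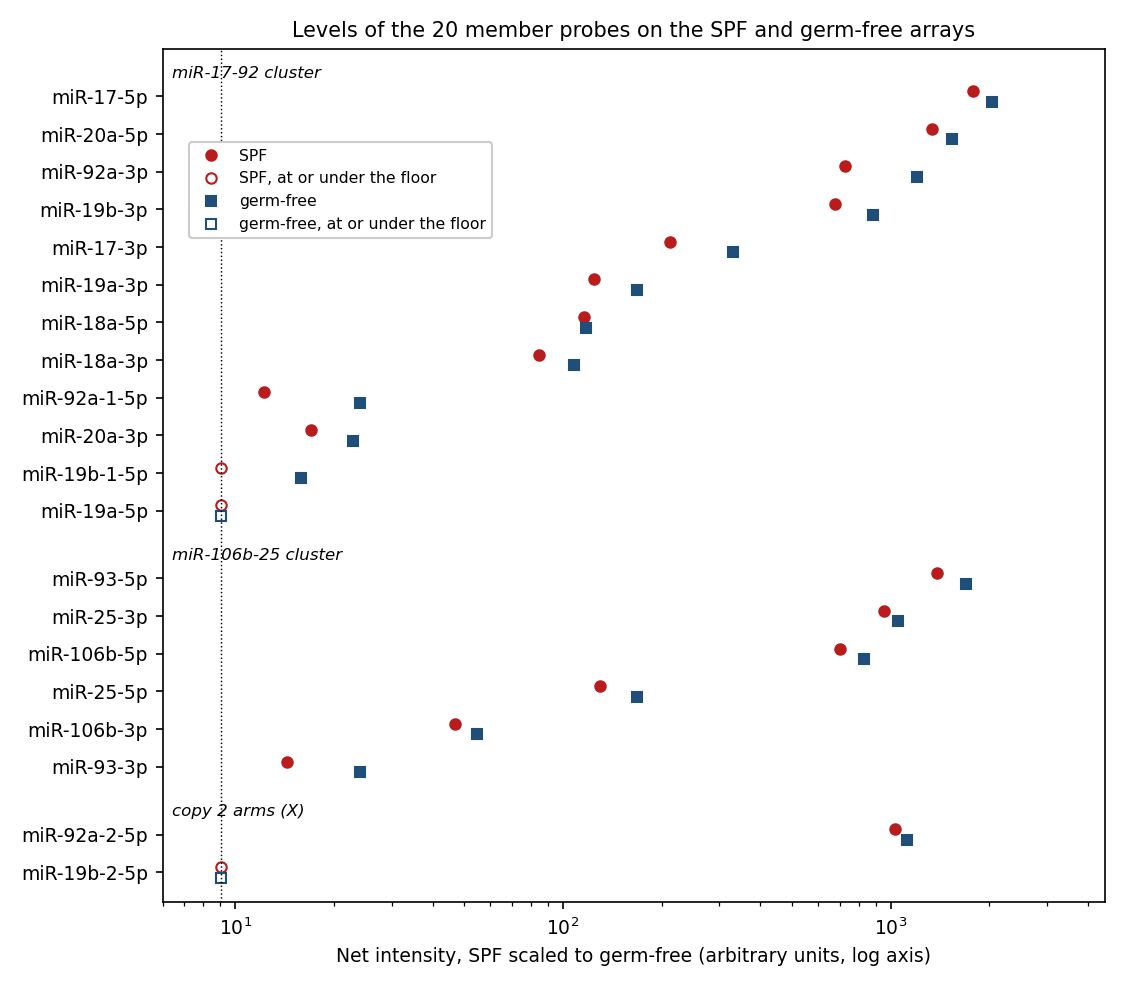
Scaled net intensity (x axis, log scale) of the 20 member probes on the SPF array (circles) and the germ-free array (squares), grouped by cluster and ordered by the germ-free level, with 1 spot per probe and array and open symbols for values set to the floor (dotted line). The SPF point lies left of the germ-free point for every probe above the floor on both arrays, widely so for miR-92a-3p (723.9 against 1206) and hardly for miR-18a-5p (116.2 against 117.6); without scaling the order turns for 6 of the probes.

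The order of the signals was much the same on both arrays. miR-17-5p was the brightest main arm on each, followed by miR-93-5p and miR-20a-5p. On the SPF array miR-25-3p came next, ahead of miR-92a-3p, miR-106b-5p and miR-19b-3p. On the germ-free array miR-92a-3p was the fourth, followed by miR-25-3p, miR-19b-3p and miR-106b-5p. miR-19a-3p and miR-18a-5p were the dimmest on both. This is an order of probe signals, and with 1 array per group and an unknown response of each probe, which neighbours differ in the amount of RNA cannot be told. All 20 probes together held 0.930% of the net miRNA signal of the SPF array and 1.11% of that of the germ-free array.

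The arms outside the seed groups are mostly the passenger strands, which are degraded when the main arm is loaded. Of these 11 probes, 8 were above the floor on both arrays, with a median log2 of -0.40. The brightest was miR-92a-2-5p from chromosome X, with intensities of 1373 on the SPF array and 1253 on the germ-free array. Its scaled net intensities were 1032 on the SPF array and 1124 on the germ-free array, a log2 of -0.12 (technical error 0.13). The corresponding arm of the chromosome 14 copy, miR-92a-1-5p, was near the floor, with intensities of 172.7 on the SPF array and 152.6 on the germ-free array and a log2 of -0.98 (technical error 0.61). At 1.97-fold lower it was the member nearest to a 2-fold difference, and without background subtraction its log2 was -0.10. Its spot, like those of miR-93-3p and miR-20a-3p, lay, on each array, under the level that probe-less spots reached (their mean plus 2 SD).

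Of the passenger strands, miR-17-3p was the brightest within the 2 clusters. The hairpin of Mir17 (RefSeq, chr14:115043671-115043754, plus strand) is shown with miR-17-5p and miR-17-3p in capitals.
Mir17: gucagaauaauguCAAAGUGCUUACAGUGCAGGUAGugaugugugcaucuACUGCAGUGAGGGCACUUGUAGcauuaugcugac

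miR-17-3p had intensities of 407.7 on the SPF array and 458.6 on the germ-free array, a log2 of -0.64 (technical error 0.13) or 1.56-fold lower. The arms of miR-17 thus differed in their change under the processing used here. The log2 ratio of 5p over 3p signal was 3.07 on the SPF array and 2.63 on the germ-free array, a difference of 0.45 (technical error 0.19). For miR-18a this ratio was 0.46 on the SPF array and 0.13 on the germ-free array, a difference of 0.33 (technical error 0.22), since miR-18a-3p was at -0.35. In miR-25 the 3p arm is the main arm. Its 5p over 3p ratio was -2.88 on the SPF array and -2.64 on the germ-free array, a difference of -0.23 (technical error 0.19), with miR-25-5p at -0.38. The arms of miR-106b differed by -0.02 in their change (technical error 0.26), miR-106b-3p being at -0.23. For miR-20a and miR-93 the differences of 0.22 and 0.44 were under their technical errors of 0.51 and 0.56, because miR-20a-3p (log2 -0.42) and miR-93-3p (log2 -0.74) were close to the floor. Only the ratio of miR-17, among these 6 precursors, differed between the arrays by more than 2 technical errors. The log2 values of its arms lay closer together without background subtraction, at -0.22 for miR-17-5p and -0.45 for miR-17-3p. They did so too with local background subtraction, at -1.23 for miR-17-5p and -1.55 for miR-17-3p. With block medians removed their gap was 0.45.

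The remaining 3 arms were not detected on both arrays. miR-19b-1-5p exceeded the floor in the germ-free sample only, which bounds its log2 at -0.81 or lower, and no technical error was computed for this bound. Its germ-free intensity of 144.4 was under the level that probe-less spots reached there (165.8). Both miR-19a-5p and miR-19b-2-5p were under the floor on both arrays.

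The 2 clusters were then compared, with miR-19b-3p and miR-92a-3p, whose probes also read chromosome X, counted in miR-17-92. The miR-17-92 cluster had 10 of its 12 probes above the floor on both arrays, with a median log2 of -0.41 (range -0.98 to -0.02). The miR-106b-25 cluster had 6 of 6, with a median of -0.27 (range -0.74 to -0.15). The medians differed by -0.13. Over the main arms alone the difference was -0.05, with a median of -0.30 for 6 arms of miR-17-92 and -0.24 for 3 arms of miR-106b-25. The ranges of the clusters overlapped almost fully, and with local background subtraction the difference was 0.02.

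**Figure D3:**
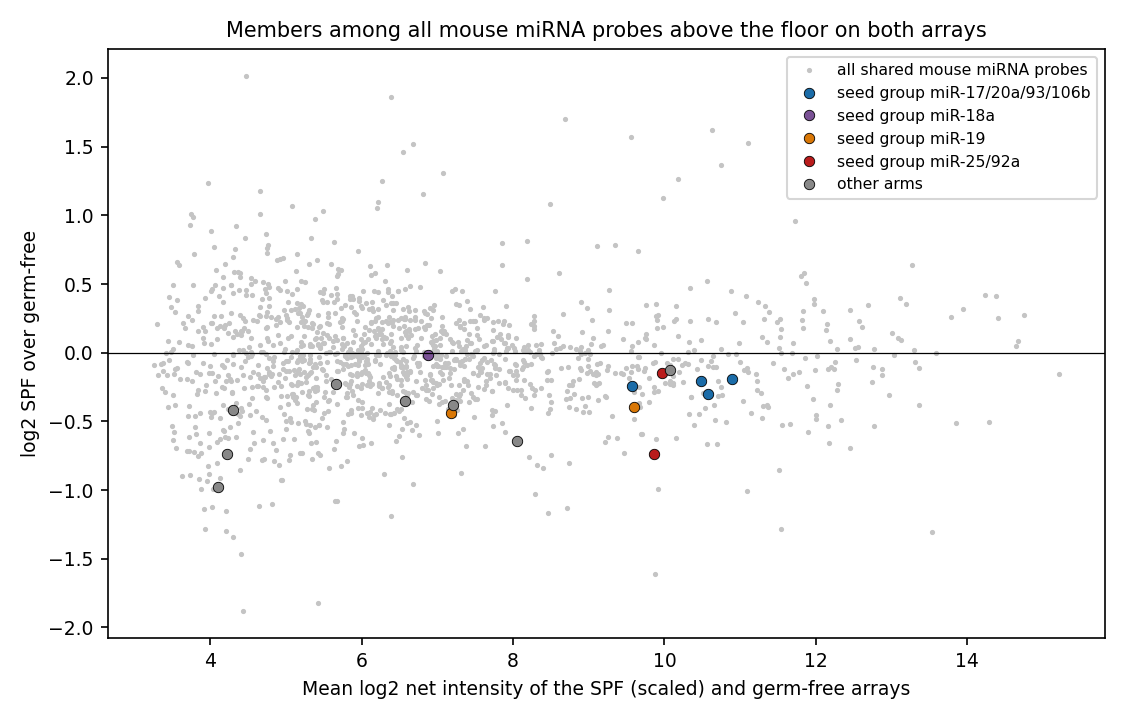
Log2 SPF over germ-free (y axis) against the mean log2 net intensity of the arrays (x axis) for the 1471 mouse miRNA probes above the floor on both, with the 17 member probes coloured by seed group. All members but miR-18a-5p lie below the median of all probes, 10 of them below the lower quartile, and they end at a mean log2 net intensity of 10.90 while other probes reach 15.22; without scaling the median of all probes moves to 0.18 and that of the members to -0.11.

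The members were also set beside probes of like brightness. Among the brightest 25% of shared probes, 62.8% had a log2 below 0 and 26.4% were below 0 by more than 2 technical errors. Of the 8 members among them all 8 were below 0, and 3 were so by more than 2 technical errors. These counts are of the scaled values. A loess correction for brightness left the members' median at -0.29 and that of all miRNA probes at 0.00.

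A list of paralogs and seed relatives, which does not hold every miRNA with these seeds and includes both arms, was read next. Its 12 probes for miR-106a, miR-18b, miR-20b and miR-363 on chromosome X and for miR-32 and miR-367, which share the AUUGCAC seed of miR-92a, had 8 above the floor on both arrays. All 8 were lower, with a median log2 of -0.39, against 57.6% of all shared probes. Without scaling 6 were lower and 2 higher, where 28.1% of all shared probes were lower. With scaling, 4 of the 8 were below 0 by more than 2 technical errors, against 15.2% of all shared probes. miR-106a-5p had scaled net intensities of 1378 on the SPF array and 1932 on the germ-free array, a log2 of -0.49 (technical error 0.13). It differs from miR-17-5p at 1 base (U10A), and the log2 of miR-17-5p was 0.29 above it (technical error 0.18 for the difference). miR-20b-5p had 1166 on the SPF array and 1460 on the germ-free array, a log2 of -0.32 (technical error 0.13). Cross-hybridisation within these families was not tested, since the probe sequences are not used here. miR-18b-5p was at -0.25 (technical error 0.20). Of the miR-92a seed relatives, the dim miR-363-3p was at -0.78 (technical error 0.33) and miR-32-5p at -0.65 (technical error 0.26). Both are among the 4 beyond 2 technical errors. On the SPF array their intensities, 188.0 for miR-363-3p and 198.0 for miR-32-5p, were under the level that probe-less spots reached (202.2). A search of the array for every non-member whose RefSeq sequence has one of the 4 seeds, added after the values were seen, found 8 probes. Of these, 6 were above the floor on both arrays. All 6 were lower with scaling (57.6% of all shared probes) and without it (28.1%). Without scaling miR-18b-5p was nearly equal, with net intensities of 65.99 on the SPF array and 66.45 on the germ-free array. The search added miR-92b-3p, with scaled net intensities of 131.8 on the SPF array and 211.1 on the germ-free array and a log2 of -0.68 (technical error 0.14), and miR-6383, which exceeded the floor in the germ-free sample alone. miR-367, which is typical of pluripotent cells, was under the floor in both arms.

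The non-member probes nearest to miR-92a-3p, by distance of log2 scaled net intensity over the 2 arrays, were miR-6516-3p (distance 0.081, log2 -0.63), miR-195a-5p (0.188, log2 -0.99) and miR-342-3p (0.253, log2 -0.59). Those nearest to miR-17-5p were miR-7016-5p (distance 0.148, log2 -0.01), miR-3090-5p (0.148, log2 -0.01) and miR-7648-3p (0.171, log2 -0.07). Likeness over 2 arrays is a description of signal levels only.

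**Figure D4:**
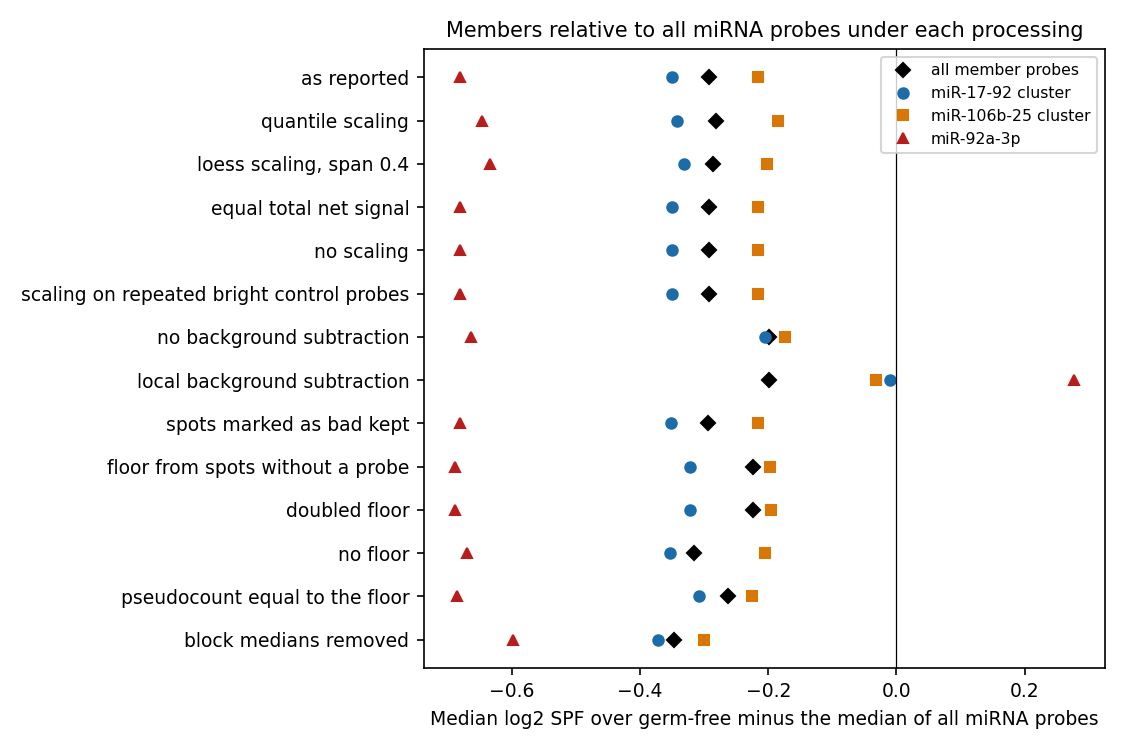
Log2 SPF over germ-free minus the median of all miRNA probes in the same setting (x axis), for the median of all member probes (diamonds), of the miR-17-92 cluster (circles), of the miR-106b-25 cluster (squares) and for miR-92a-3p (triangles), under the processing used here and each alternative (y axis). All points lie left of 0 except that of miR-92a-3p with local background subtraction, at 0.28; elsewhere miR-92a-3p lies between -0.69 and -0.60.

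Values relative to the median miRNA cannot change under the 3 alternatives that multiply an array by another constant. Over the 9 others that did not use local background, the members' median was between -0.35 and -0.20 relative to it, with at least 8 of the 9 main arms below it. The cluster medians, again relative to the median miRNA, ran between -0.37 and -0.20 for miR-17-92 and between -0.30 and -0.17 for miR-106b-25. Subtracting the local background of each spot moved the members apart. The local background was 33.2% to 83.8% of the signal at the main arms on the SPF array and 67.0% to 125% on the germ-free array, and miR-25-3p, whose background exceeded its signal on the germ-free array, had no value. Under that setting 3 of the 8 main arms with a value lay below the median miRNA, and repeated control spots had an SD of 1.30 on the log2 scale.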

How the data were processed

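RNA extraction used a Qiagen kit, and Hy5 labelling an Exiqon kit, per the labels' protocols. Each of the 3200 spots has a deposited median intensity and a local background intensity from a scan at 3 gains, per the file headers. The deposited intensity columns show no background subtraction or scaling. For the array platform and the scanner, the sources used here name nothing.

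Groups came from the sample titles. Blank spots (895 on the SPF array after 1 marked spot was left out, 896 on the germ-free array) gave the background and a floor of 10.7 net units on the SPF array and 9.05 on the germ-free array. The SPF values were scaled by 0.849. Log2 SPF over germ-free was computed with Python 3.11.15 and pandas 2.3.3, with loess (span 0.4) from statsmodels 0.14.6. Technical spread came from 5 bright control probes with 8 spots each per array. Precision is limited by the number of arrays, and 1 array per group allows no test. The procedure was run on data simulated from the germ-free net values, with the technical SD as noise and no scale difference between arrays. Such data cannot show whether the scaling was right or how samples vary. The members, the lists, the settings and the rule for the miRNAs named (all member probes, the paralog and seed list, the 3 probes nearest to miR-92a-3p and to miR-17-5p, and marker lists) were chosen with earlier results of these data known. Alternatives were quantile, loess, equal total, control-probe and no scaling, no or local background subtraction, other floors, a pseudocount, removal of block medians, other folds and other choices of arms.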

Additional observations from a re-analysis of the deposited data

How the results depend on the processing

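No paired analysis was possible because each group has 1 array, and for the same reason no replicate could be left out. A log2 value was counted as moved when it shifted by more than the technical SD of 0.13 of a difference between single bright spots. Where a log2 value beyond 0.13 changed sign, it was counted as reversed instead. A count was moved when it changed by a factor above 1.5 or from 0. Without scaling, the median log2 was -0.11 for all members, -0.17 for miR-17-92, -0.036 for miR-106b-25, 0.012 for the AAAGUGC group, 0.22 for miR-18a-5p, -0.18 for miR-19 and -0.21 for miR-25 and miR-92a. In that setting 11 members were negative, where 28.1% of all shared probes were. Single values turned positive for miR-17-5p (0.043), miR-20a-5p (0.033), miR-25-3p (0.088), miR-106b-3p (0.010), miR-92a-2-5p (0.11) and miR-18a-5p (0.22). With scaling on the control probes the same medians were -0.48, -0.53, -0.40, -0.35, -0.15, -0.55 and -0.57, and 1 member was at least 2-fold lower. Without background subtraction the medians of all members and of miR-17-92 were -0.21 and -0.22. With local background subtraction, the miR-17-92 and miR-106b-25 medians were -0.099 and -0.12, with a difference of 0.022. The seed groups were then at 0.69 (AAAGUGC), -0.40 (miR-18a), 1.15 (miR-19) and 0.19 (miR-92a-3p alone). Of 19 members with a value there, 11 were negative, near the share of all probes (57.2%), and 5 were at least 2-fold lower. Local background subtraction turned positive miR-93-5p (3.95), miR-20a-5p (1.498), miR-19a-3p (1.33), miR-19b-3p (0.98), miR-20a-3p (0.20), miR-92a-3p (0.19), miR-25-5p (0.094) and miR-18a-3p (0.089). The cause was not tested. Removing block medians put miR-18a-5p at -0.34, and counting both arms put the miR-18a group at -0.18. With no floor 2 members, and at a fold of 1.5 4 members, passed as lower. The share of all shared probes was computed only for a fold of 2 under the processing used here. The counts passing with control-probe scaling, local background, no floor or a fold of 1.5 therefore cannot be set against other probes. With the brighter arm of each precursor, 9 probes were counted by construction. All 9 were negative in the scaled values, where 57.6% of all shared probes were. Without scaling miR-17-5p, miR-20a-5p, miR-25-3p and miR-18a-5p among them were positive. Among the values of single member probes over the alternatives, 19 changed sign, 6 of them values of miR-18a-5p, which lay between 0.0019 and 0.22 there.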
